A study of Mus musculus with 6 samples.

Results

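Chromatin regulator genes encode the enzymes and complexes that write, erase and read marks on DNA and histones, or that move nucleosomes. The 40 genes described here cover Polycomb repressive complexes, MLL-type and other histone methyltransferases, histone demethylases, the SWI/SNF remodelling complex, DNA methylation, and histone acetylation and deacetylation. Their peaks were found by gene name: every peak that the deposited annotation assigns to one of these symbols was taken, 614 of 214414 peaks in the table. All 40 genes had at least 1 peak, and 39 had at least 1 that was tested. The rule uses gene function and no measured value, but the list was drawn up with earlier results of these data known.

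The peaks come from ATAC-seq, in which a transposase inserts adapters into accessible DNA, of mouse non-small cell lung cancer (NSCLC) organoids, which are tumour cells grown in culture as small bodies in 3 dimensions. There were 3 libraries of immunotherapy-sensitive organoids (Sen) and 3 of resistant ones (Res). No genotype, strain, passage or drug treatment is given in the labels for either group, and whether a library stands for its own culture is not stated, so the p-values cover only how these libraries varied, and that variation may be technical. The single comparison of the study is resistant against sensitive, and it addresses which chromatin differs in accessibility between them. Positive log2 fold changes are read here as higher in resistant organoids, on the wording of the table's title alone. A log2 change of 1 is a 2-fold difference. Values for single libraries were not used, because the names of their columns match no sample label, so levels are the authors' mean normalized counts over all 6 libraries, and whether the groups overlap at a peak is not shown here. Sequencing depth per library is not used here, and the precision is that of the authors' standard errors (SE).

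At promoters of lineage markers, all 6 epithelial genes looked up (such as Epcam and Cdh1) had strong peaks, with mean counts of 87.2 to 785 in the authors' deposited table, and all 6 were lower in resistant organoids. Of 7 lung epithelial genes, 5 had a tested promoter peak and 3 of them were lower, while Sftpc and Napsa had none. Of 6 immune markers, 1 had a tested promoter peak, and Ptprc, the pan-leukocyte gene, had none. Of 5 fibroblast markers, 4 were tested and 1 was higher. Of 4 endothelial markers, 3 were tested and 0 were called. The part of these lineage differences in the values below was not tested.

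Polycomb repressive complex 2 methylates histone H3 through Ezh1 or Ezh2, and complex 1 binds that mark and ubiquitylates histone H2A. The MLL family (Kmt2 genes) methylates H3 at promoters and enhancers and works against Polycomb. SWI/SNF uses the ATPases Smarca2 or Smarca4 to slide or evict nucleosomes, and its subunit genes are among those most often mutated in human cancers, lung cancer included. Accessibility at peaks assigned to a gene does not give the amount or activity of its protein. Whether each peak regulates the gene it is assigned to was not tested.

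Most accessible regions of these genes did not pass the test between resistant and sensitive organoids, and the share that did was close to that of the genome. Of the 614 peaks, 329 were strong enough to be tested and 285 were left out by the authors' filter, and the lowest mean count among all tested peaks was 14.7. With a threshold of 0.05 on the adjusted p of the authors' deposited table (DESeq2's Wald test, Benjamini-Hochberg adjustment over all tested peaks), 11 of the 329 were higher and 24 lower. These 35 are 10.6% of the tested member peaks, against 12.4% of all 102173 tested peaks, of which 5.02% were higher and 7.34% lower. The median log2 fold change of the member peaks was -0.07, and that of all tested peaks was -0.07. The calls fell on 13 genes, and the other 27 had no called peak. In bulk libraries, fewer cells of a type and less open chromatin per cell cannot be told apart.

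**Figure D1:**
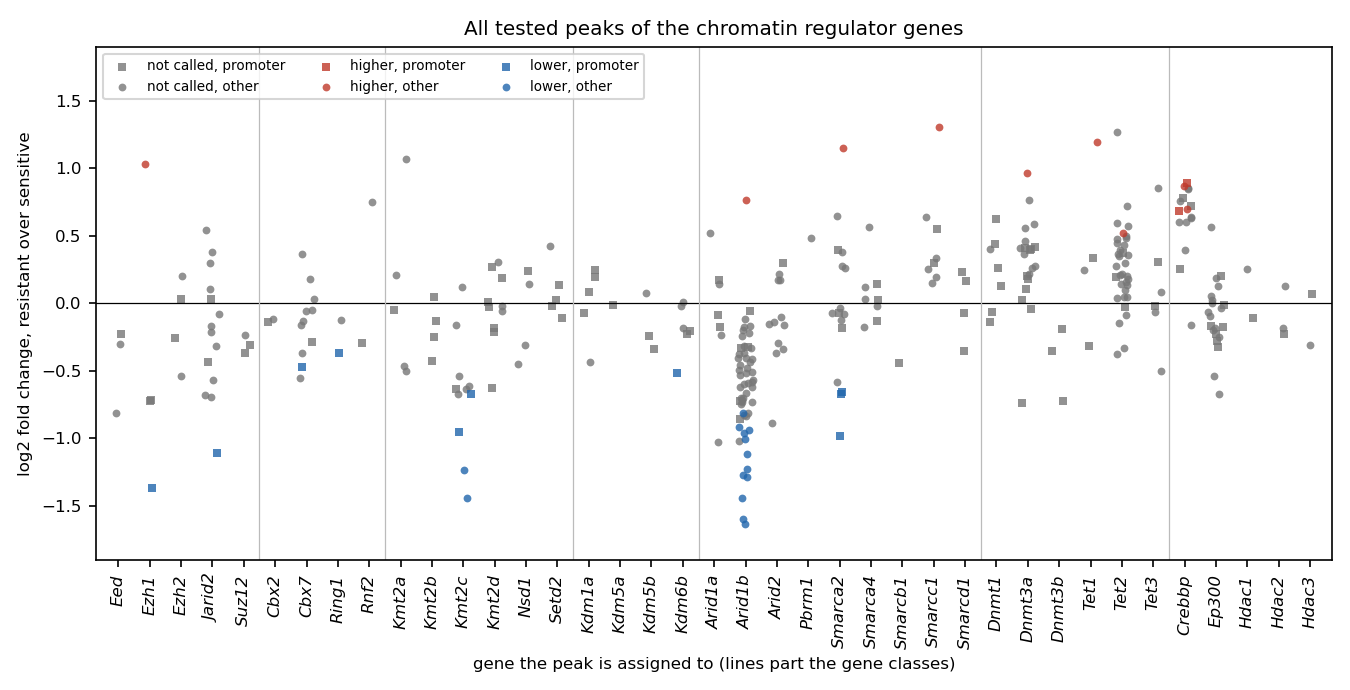
Log2 fold change (resistant over sensitive) of each of the 329 tested peaks, by the gene the peak is assigned to; squares are promoter peaks, circles are other peaks, and colours mark peaks past the threshold. The lower calls pile up at Arid1b (12 peaks) and Kmt2c (4), the 4 Crebbp calls are all higher, and most genes hold grey points on both sides of 0.

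The calls of each class came mostly from a few loci, and no test compared the classes. SWI/SNF genes had 3 higher and 15 lower peaks of 112 tested in the authors' deposited table, with a median of -0.32. DNA methylation genes had 3 higher and 0 lower of 74, with a median of 0.26, and 58 of the 74 were above 0. Genes for acetylation and deacetylation had 4 higher and 0 lower of 44. Without Arid1b, SWI/SNF genes had 2 higher and 3 lower of 57 with a median of 0.02, and without Crebbp, acetylation genes had 0 calls of 28 with a median of -0.10, in the authors' deposited table. Polycomb repressive complex 2 had 1 higher and 2 lower of 28, and complex 1 had 0 higher and 2 lower of 17. Histone methyltransferases had 0 higher and 4 lower of 39, and demethylases had 0 higher and 1 lower of 15. Without Arid1b, which holds 55 of the tested peaks, 12 lower calls were left and the median of the members was 0.03. Without Crebbp, 7 higher calls were left.

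At the level of promoters, 1 gene was higher, 6 were lower and 31 did not pass. Each gene was represented by its promoter peak (within 3 kb of an annotated start) with the highest mean count, which was tested for 38 genes. The higher promoter was Crebbp, and the lower ones were Ezh1, Kmt2c, Smarca2, Kdm6b, Cbx7 and Ring1. These 7 are 18.4% of 38, against 17.5% of the 15494 genes with a tested promoter, where 3.58% were higher and 13.9% lower by the authors' deposited table. The median over the member promoters was -0.15, and over all promoters -0.18. For 34 of the 38 the 95% interval (1.96 SE each way) stayed within a 2-fold change in either direction, against 10621 of 15494 over all genes. These shares were not matched for peak strength. The median mean count was 84.7 for the members and 66.6 for all promoters, and the lowest were 34.2 and 14.7. The median SE was 0.224 for the members and 0.239 for all promoters. The promoter peaks of Bmi1, a ring-finger subunit of Polycomb complex 1 that is overexpressed in several cancers, and of Pbrm1, the bromodomain subunit of a SWI/SNF form, had mean counts of 12.3 and 12.7 and were not tested. The RefSeq start of Pbrm1 lies in a peak that the annotation assigns to Snord19, a small nucleolar RNA gene, with a log2 fold change of -0.14 ± 0.23 (SE) by the authors' deposited table.

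**Figure D2:**
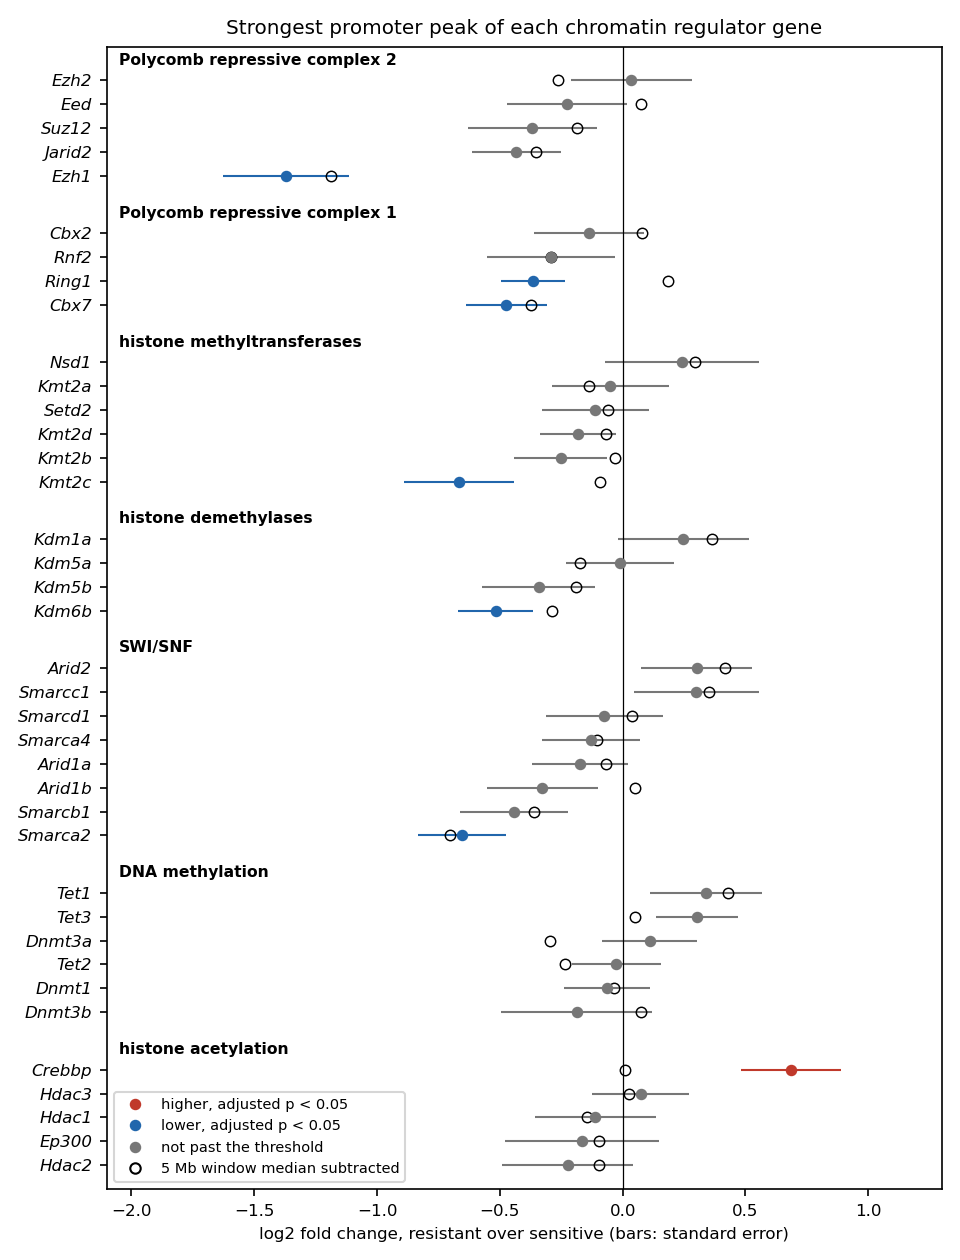
Log2 fold change (resistant over sensitive) of the strongest promoter peak of each of the 38 genes tested, with bars of 1 SE; filled points are the authors' values, coloured where past the threshold, and open circles are the same values after the median of the 5 Mb window was subtracted. Ezh1 and Smarca2 stay far below 0 in both, while Crebbp moves from 0.69 to 0.01 and Kmt2c from -0.67 to -0.09.

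Promoter windows of called genes are printed here because each lies inside a peak whose fold change is given next. Those of Smarca2 and Ezh1 were added after their values were seen, and the called Ezh1 promoter peak lies outside its window. They run from 250 bases before to 50 bases after the RefSeq start (build GRCm38.p6, the same coordinates as mm10), 5′ to 3′ along the gene, at chr16:4213355-4213654 (Crebbp, minus strand), chr5:25498734-25499033 (Kmt2c, minus), chr19:26604910-26605209 (Smarca2, plus), chr15:79932597-79932896 (Cbx7, minus), chr17:34024631-34024930 (Ring1, minus) and chr11:101226414-101226713 (Ezh1, minus). Capitals mark matches, on either strand, to the GC box GGGCGG, the CCAAT box CCAAT, the ETS core CGGAAG, the AP-1 site TGANTCA and the cAMP response element TGACGTCA.

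Crebbp: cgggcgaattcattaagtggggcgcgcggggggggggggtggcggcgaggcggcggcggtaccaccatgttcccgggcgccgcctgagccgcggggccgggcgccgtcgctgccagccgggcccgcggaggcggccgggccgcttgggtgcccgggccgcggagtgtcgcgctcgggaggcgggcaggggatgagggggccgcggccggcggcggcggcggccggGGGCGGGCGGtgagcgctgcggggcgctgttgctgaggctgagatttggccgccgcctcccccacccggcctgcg
Kmt2c: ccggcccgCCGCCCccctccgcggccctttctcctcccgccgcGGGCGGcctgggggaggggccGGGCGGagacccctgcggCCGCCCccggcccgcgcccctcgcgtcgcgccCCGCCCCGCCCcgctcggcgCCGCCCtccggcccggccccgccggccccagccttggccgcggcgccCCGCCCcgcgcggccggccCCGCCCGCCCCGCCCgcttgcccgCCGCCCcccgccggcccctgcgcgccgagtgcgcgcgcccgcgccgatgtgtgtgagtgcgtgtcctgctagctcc
Smarca2: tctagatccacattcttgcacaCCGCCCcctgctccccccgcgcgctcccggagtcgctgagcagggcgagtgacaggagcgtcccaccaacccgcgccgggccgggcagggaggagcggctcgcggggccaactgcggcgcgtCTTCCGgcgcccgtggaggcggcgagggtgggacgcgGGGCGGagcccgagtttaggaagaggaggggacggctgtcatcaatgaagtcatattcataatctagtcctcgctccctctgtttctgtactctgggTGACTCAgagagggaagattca
Cbx7: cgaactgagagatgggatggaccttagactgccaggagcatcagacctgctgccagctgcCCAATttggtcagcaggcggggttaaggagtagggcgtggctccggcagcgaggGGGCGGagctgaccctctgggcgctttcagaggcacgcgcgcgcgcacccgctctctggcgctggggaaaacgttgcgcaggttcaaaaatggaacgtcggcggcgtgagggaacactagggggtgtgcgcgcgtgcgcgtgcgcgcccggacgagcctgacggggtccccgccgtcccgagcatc
Ring1: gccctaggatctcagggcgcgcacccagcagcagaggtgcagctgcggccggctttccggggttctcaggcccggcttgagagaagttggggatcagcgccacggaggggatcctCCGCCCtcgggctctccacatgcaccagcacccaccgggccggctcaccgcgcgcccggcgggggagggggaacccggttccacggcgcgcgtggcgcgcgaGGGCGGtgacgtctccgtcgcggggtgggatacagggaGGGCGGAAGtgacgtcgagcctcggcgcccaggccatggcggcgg
Ezh1: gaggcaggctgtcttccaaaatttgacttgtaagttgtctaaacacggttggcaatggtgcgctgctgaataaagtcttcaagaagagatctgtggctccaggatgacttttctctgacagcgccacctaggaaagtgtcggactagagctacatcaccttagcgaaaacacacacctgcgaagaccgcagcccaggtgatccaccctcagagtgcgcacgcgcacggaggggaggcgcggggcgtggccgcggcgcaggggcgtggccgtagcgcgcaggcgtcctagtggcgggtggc

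The Kmt2c window held 12 GC boxes, overlapping matches counted, while Ring1 held 3, Crebbp and Smarca2 2 each, Cbx7 1 and Ezh1 0. Among all 32851 RefSeq windows of this length, 35.7% held at least 1 GC box. A CCAAT box stood in the Cbx7 window and an ETS core in those of Ring1 and Smarca2, and 37.4% and 16.9% of all windows hold these. The Smarca2 window alone of the 6 had an AP-1 site, which 7.81% of all windows hold. None of the 6 held the cAMP response element, which 1.79% hold. In Ring1 the ETS core overlaps a GC box, and 32 of the 40 genes matched a window in the table. The windows of those 32 genes had a median GC content of 68.8% and a median ratio of observed to expected CpG of 0.90, against 52.7% and 0.38 over all windows, so most lie in CpG-rich sequence. A match to these letters is a description and does not show binding.

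Ezh1, the catalytic subunit that sustains Polycomb methylation in cells that divide little, had the largest promoter change of the 38 genes. Its strongest promoter peak (mm10 chromosome 11, 101220570 to 101223710, 2716 bp inside the gene from the annotated start) had a mean count of 54.6 and a log2 fold change of -1.37 ± 0.26 (SE) by the authors' deposited table (DESeq2 adjusted p = 5.34e-06). The peak over the start itself, 101224800 to 101227660, was at -0.72 ± 0.28 (SE) with an adjusted p of 0.0679 by the authors' DESeq2 test, short of the threshold. An intergenic peak at -3817 bp from the start, 101230280 to 101232310, went the other way, at 1.03 ± 0.34 (SE) with an adjusted p of 0.0231 by the authors' DESeq2 test. So the chromatin on either side of the Ezh1 start held called differences of opposite sign. Both calls were kept when the median of the fixed 5 Mb window that holds them was subtracted (-1.19 and 1.21).

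The other subunits of Polycomb repressive complex 2 showed smaller differences. Ezh2, the alternative catalytic subunit, which is highly expressed in dividing cells, was at 0.04 ± 0.24 (SE) by the authors' deposited table, with a 95% interval of -0.44 to 0.51. The scaffold subunits Eed and Suz12, at -0.23 and -0.37, did not pass. The promoter of Jarid2, a cofactor that recruits the complex, was at -0.43 ± 0.18 (SE) by the authors' deposited table and did not pass (adjusted p = 0.104, DESeq2). A weaker Jarid2 peak beside it, at 44736830 to 44739190 on chromosome 13, is also annotated as promoter, 2790 bp from the annotated start. That peak was lower, at -1.11 ± 0.35 (SE), with an adjusted p of 0.0170 by the authors' DESeq2 test. With its 5 Mb window median subtracted it was at -1.03 and no longer passed (adjusted p = 0.0530, normal test with Benjamini-Hochberg adjustment).

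In Polycomb repressive complex 1, both called promoters were slightly lower. Cbx7, a chromodomain reader of the Polycomb mark (chromosome 15, 79930278 to 79937600), was at -0.47 ± 0.17 (SE) by the authors' deposited table (DESeq2 adjusted p = 0.0365). Its call was lost under each of the 4 corrections, with values of -0.37 (window), -0.27 (nearest peaks), -0.19 (trend) and -0.20 (trend and window). Ring1, a ubiquitin ligase for histone H2A (chromosome 17, 34022660 to 34038620), was at -0.36 ± 0.13 (SE) by the authors' deposited table (DESeq2 adjusted p = 0.0443). The Ring1 peak is 15961 bp wide and also covers the RefSeq starts of H2-Ke6, Rxrb and Slc39a7, so its value cannot be given to Ring1 alone. With the median of its 5 Mb window (-0.55) subtracted it turned to 0.19, not past the threshold. Cbx2, another reader, was at -0.14 ± 0.22 (SE) by the authors' deposited table, with a 95% interval of -0.58 to 0.30. Rnf2, the other ligase gene of this class, was at -0.29 ± 0.26 (SE) there.

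Among the methyltransferases the changes were at Kmt2c, and no peak of Kmt2a, Kmt2b, Kmt2d, Setd2 or Nsd1 was called by the authors' DESeq2 test (1 each of Kmt2a and Nsd1 had an unadjusted p under 0.05). Kmt2c encodes a methyltransferase that marks enhancers and is mutated in many tumours. Its promoter (chromosome 5, 25494970 to 25501100) was at -0.67 ± 0.22 (SE) by the authors' deposited table (DESeq2 adjusted p = 0.0277). That peak also covers the RefSeq start of 4831440E17Rik, so its value cannot be given to Kmt2c alone. A peak at an internal annotated start, 25286420 to 25292150, was at -0.95 ± 0.25 (SE), and 2 intronic peaks were at -1.23 and -1.44, these last with mean counts of only 16.9 and 14.8 in the authors' deposited table. Of 11 tested Kmt2c peaks, 10 were below 0, with a median of -0.63. For the 20 peaks of other genes nearest to each, the median was -0.66, and 0 of the 4 calls were kept when either regional median was subtracted. The paralogue Kmt2d, at -0.18 ± 0.15 (SE), did not pass in the authors' deposited table. Kmt2a, the founding MLL gene, was at -0.05 ± 0.24 (SE) there, with a 95% interval of -0.52 to 0.42.

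Of the demethylase genes, Kdm6b was lower. Kdm6b encodes an enzyme that removes the Polycomb mark, and its promoter (chromosome 11, 69407190 to 69416090) was among the strongest of the members, with a mean count of 294. It was at -0.52 ± 0.15 (SE) by the authors' deposited table (DESeq2 adjusted p = 0.00924). With the 5 Mb window median subtracted it was at -0.29, not past the threshold. Kdm5a, which removes the active H3 mark that the MLL family sets, was at -0.01 ± 0.22 (SE) by the authors' deposited table, with a 95% interval of -0.44 to 0.42. Its paralogue Kdm5b and the demethylase Kdm1a, at -0.34 and 0.25, did not pass. The Kdm5b peak lies at -2321 bp from the annotated start, and the peak over the RefSeq start was at -0.24 ± 0.42 (SE), not called.

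SWI/SNF genes held 18 of the 35 calls, 13 of them at Arid1b. Arid1b encodes a DNA-binding subunit of the BAF form of the complex and is the paralogue of the tumour suppressor Arid1a. Of 55 tested Arid1b peaks on chromosome 17, 54 were below 0 in the authors' deposited table, 12 were lower and 1 was higher, with a median of -0.59. The lower peaks spread over 354.2 kb, from 127 kb upstream of the RefSeq start to 227.2 kb downstream. They lay in intergenic DNA and in introns and exons, some of these of transcripts listed without a gene number. None of the 5 tested Arid1b promoter peaks was called, and their values ran from -0.86 to -0.06. The strongest of these, with a mean count of 72.8, was at -0.33 ± 0.23 (SE). The others were weak and imprecise, and the one over the RefSeq start (-0.06) had a mean count of 15.8 and an SE of 0.77. The largest losses were an intronic peak at 5079020 to 5083280 (-1.64 ± 0.24 (SE)) and an intergenic one at 4921090 to 4923830 (-1.60 ± 0.27 (SE)) in the authors' deposited table. The smallest p belonged to a peak upstream of the start, 4864710 to 4871460, at -1.44 ± 0.20 (SE), with an adjusted p of 6.00e-11 by the authors' DESeq2 test. The annotation places that peak in an intron of a transcript listed without a gene number.

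One Arid1b peak stood against the rest of its locus. It lies in an intron, 212.4 kb from the start (5205820 to 5209140), and was at 0.76 ± 0.25 (SE) by the authors' deposited table (DESeq2 adjusted p = 0.0236), while the next called peak, 5219980 to 5224490, was at -0.81 ± 0.25 (SE). Neighbouring genes were low as well. The 51 tested peaks of other genes within 500 kb had a median of -0.55, 49 of them were below 0 and 7 were called lower. When the median of the 5 Mb window was subtracted, 6 of the 12 lower Arid1b calls and the higher one were kept, and 5 and the higher one when that of the 20 nearest peaks of other genes was. The locus crosses a window boundary, and the medians on either side were -0.38 and -0.46. These medians include the gene's own peaks, 19 of 147 tested peaks and 36 of 320.

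**Figure D3:**
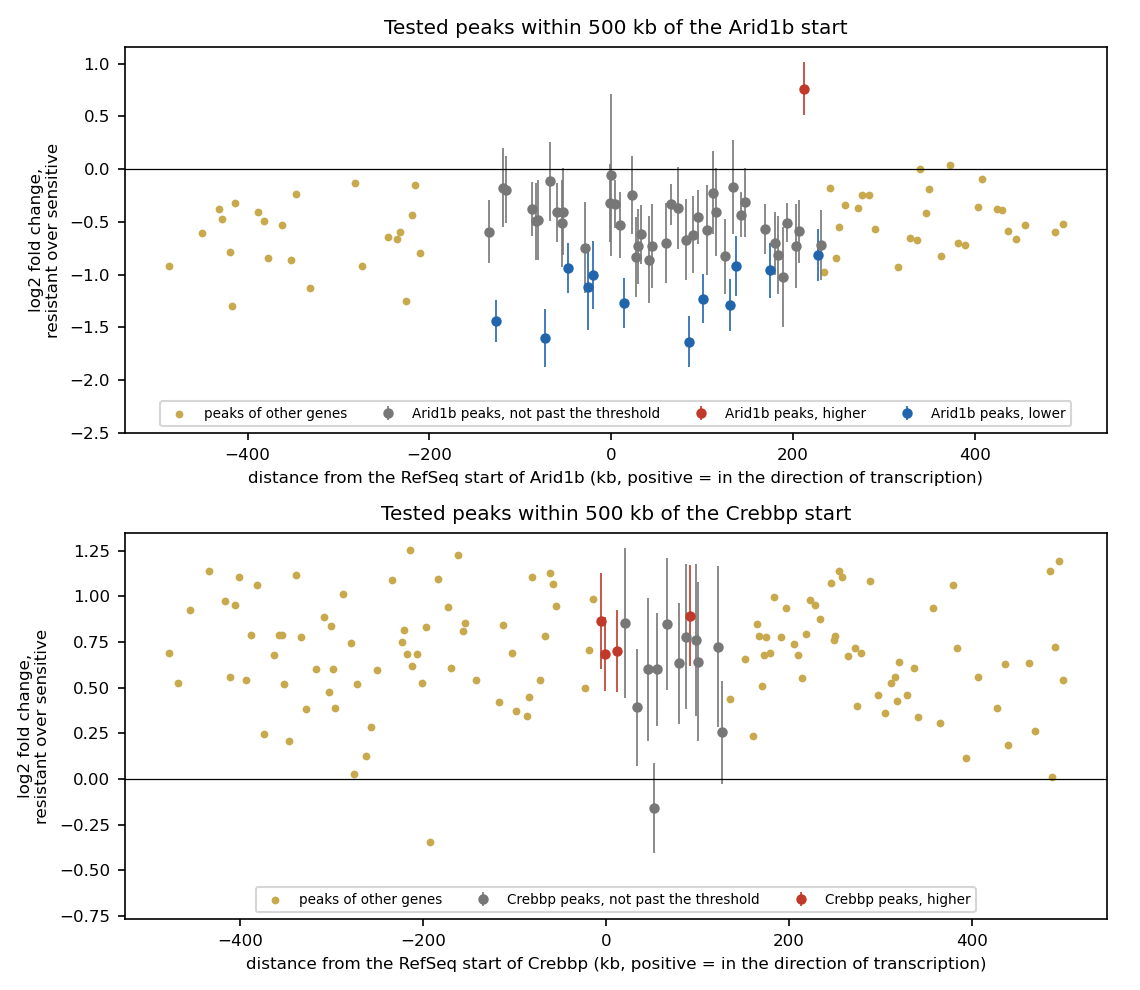
Log2 fold change (resistant over sensitive) of tested peaks within 500 kb of the RefSeq starts of Arid1b (top) and Crebbp (bottom), against distance from the start; bars are 1 SE for the gene's own peaks, and yellow points are peaks of other genes. Around Arid1b nearly all peaks lie below 0, with 12 of its own called lower at -0.81 to -1.64 and 1 called higher at 0.76, and around Crebbp its own median of 0.69 equals that of its neighbours, 0.69.

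Smarca2, which encodes one of the alternative ATPases, was lower at 3 of its 6 tested promoter peaks, in a region with a median near 0. Its strongest promoter peak, at an internal start (chromosome 19, 26746540 to 26757580), was at -0.65 ± 0.18 (SE) by the authors' deposited table (DESeq2 adjusted p = 0.00441). The peak over the RefSeq start, 26603780 to 26610520, was at -0.67 ± 0.18 (SE) with an adjusted p of 0.00288 by the authors' DESeq2 test. Another, smaller promoter peak beside the internal start was at -0.98 ± 0.35 (SE) by the authors' deposited table, and its call was lost under each of the 4 corrections with values of -0.94 to -1.03. The remaining promoter peaks, at -0.18, -0.07 and 0.40, did not pass. An intronic peak downstream, 26789260 to 26791550, was higher, at 1.15 ± 0.36 (SE) with an adjusted p of 0.0175 by the authors' DESeq2 test. The median of the 5 Mb window was 0.05, and without it the start peaks were at -0.70 and -0.72 and the intronic one at 1.10, all 3 still called. The start peaks did not pass once the trend of fold change with peak strength was removed (-0.37 and -0.39). Smarca4, the other ATPase, was at -0.13 ± 0.20 (SE) at its promoter in the authors' deposited table and had no called peak.

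Among the remaining SWI/SNF genes, 1 peak was called. It lies in an intron of Smarcc1, a core scaffold subunit (chromosome 9, 110161000 to 110163510), and was at 1.31 ± 0.32 (SE) by the authors' deposited table (DESeq2 adjusted p = 0.000832). Without its window's median it was at 1.36 and still called. The Smarcc1 promoter was at 0.30 ± 0.26 (SE) by the authors' deposited table and did not pass. Smarcd1, another core subunit, was at -0.07 ± 0.24 (SE) there, with a 95% interval of -0.54 to 0.39. The promoters of Arid1a, Arid2 and Smarcb1, at -0.17, 0.30 and -0.44, did not pass.

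The DNA methylation genes had no called promoter by the authors' DESeq2 test and 3 higher peaks, all outside promoters. Of the strongest promoter peaks of these 6 genes, 0 had an unadjusted p under 0.05 by that test. Weaker promoter peaks of Dnmt3b, at -0.72 ± 0.31 (SE), and of Dnmt3a, at 0.42 ± 0.21 (SE), did, but were not called. Tet enzymes oxidise methylcytosine on the way to its removal, Dnmt1 copies methylation after replication, and Dnmt3a and Dnmt3b set it anew. An intronic peak of Tet1 (chromosome 10, 62850470 to 62852400) was at 1.19 ± 0.35 (SE) by the authors' deposited table (DESeq2 adjusted p = 0.00908), and at 1.28 and still called without its window's median. An intronic peak of Dnmt3a was at 0.96 ± 0.32 (SE) and a peak over an exon of a transcript assigned to Tet2 at 0.52 ± 0.18 (SE) by the authors' deposited table, and both lost their call when either regional median was subtracted. Both were still called with the trend of fold change with peak strength subtracted (1.015 and 0.81). With trend and window subtracted, the Tet2 peak was still called (0.55) and the Dnmt3a peak was not. Tet2 had 34 tested peaks, 29 of them above 0, and its promoter was at -0.03 ± 0.18 (SE) by the authors' deposited table, with a 95% interval of -0.38 to 0.33. Dnmt3a had 18 of 20 tested peaks above 0 with a median of 0.38, and the 20 nearest peaks that belong to other genes had a median of 0.47. The strongest Dnmt1 and Dnmt3b promoter peaks, at -0.06 and -0.19, did not pass. The Dnmt1 one lies 2895 bp from the annotated start, and the peak over its RefSeq start was at 0.13 ± 0.21 (SE), not called.

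Crebbp, which encodes the acetyltransferase CBP, was the only member with a higher promoter. The promoter peak (chromosome 16, 4211120 to 4217410) was at 0.69 ± 0.20 (SE) by the authors' deposited table (DESeq2 adjusted p = 0.00933), and 3 other Crebbp peaks were called at 0.70 to 0.89. Of its 16 tested peaks, 15 were above 0. Peaks of neighbouring genes on chromosome 16 were high as well: 118 of the 119 tested peaks of other genes within 500 kb were above 0, 33 of them called higher, with a median of 0.69. All 4 calls were lost when the median of the 5 Mb window (0.67) was subtracted, and the promoter was then at 0.01. The exception within the gene was an intronic peak at 4159200 to 4162520, at -0.16 in the authors' deposited table and not called there. After the subtraction it was at -0.83 with an adjusted p of 0.0190 (normal test, Benjamini-Hochberg over all tested peaks).

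The paralogue of Crebbp, Ep300, had 21 tested peaks and 0 calls by the authors' DESeq2 test, 0 also at an unadjusted p under 0.05, with its promoter at -0.17 ± 0.31 (SE) by the authors' deposited table. The deacetylase genes Hdac1, Hdac2 and Hdac3 had 7 tested peaks and 0 calls by the same test, 0 also at an unadjusted p under 0.05. Hdac3 was nearest to 0 among the promoters of this class, at 0.07 ± 0.20 (SE) by the authors' deposited table, with a 95% interval of -0.31 to 0.46.

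Across genes with many peaks, the median change followed that of the surrounding genes. Of the members, 11 had at least 10 tested peaks. Their medians ran from -0.63 (Kmt2c) and -0.59 (Arid1b) over -0.19 (Jarid2), -0.14 (Arid2), -0.13 (Cbx7), -0.10 (Ep300), -0.07 (Smarca2) and -0.03 (Kmt2d) to 0.25 (Tet2), 0.38 (Dnmt3a) and 0.69 (Crebbp). For the 20 nearest peaks that belong to other genes, this value ran from -0.66 around Kmt2c to 0.72 around Crebbp and differed from the gene's own by at most 0.17. Over these 11 genes Pearson's r was 0.98 and Spearman's rho 0.85, given as a description, since all values come from the same 6 libraries. With the 5 Mb window median subtracted, the class medians were -0.06 for SWI/SNF, 0.00 for DNA methylation and -0.01 for acetylation, and -0.16 for Polycomb repressive complex 2.

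After that subtraction 5 higher and 9 lower of the authors' 35 calls were kept, in Ezh1, Arid1b, Smarca2, Smarcc1 and Tet1. In all, 5 higher and 10 lower of the 329 tested member peaks were then called, beside 5.85% of all tested peaks. Of the 7 promoter calls, those of Ezh1 and Smarca2 were kept. With the window median subtracted, 0 higher and 2 lower of the 38 member promoters were called, beside 8.35% of all promoters. Removal of a trend with peak strength acted on the promoters too. Strong peaks had lower fold changes across the genome, with a median of -0.29 in the top of 20 bins of mean count, where the Kmt2c, Cbx7, Smarca2, Kdm6b and Ring1 promoters lie. With that trend removed, only Ezh1 of the 6 lower promoters was still called, Crebbp was still higher (0.92), and Tet3, another Tet enzyme, was called higher (0.59).

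**Figure D4:**
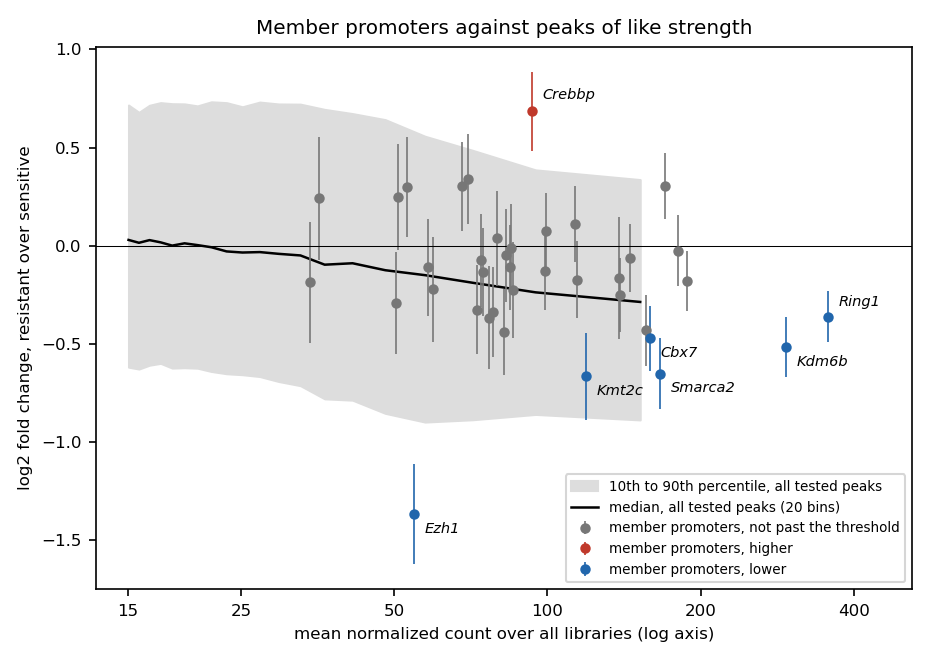
Log2 fold change (resistant over sensitive) of member promoters against mean normalized count (log axis), with bars of 1 SE; the line and grey band give the median and the 10th to 90th percentile of all tested peaks in 20 bins of mean count. Ezh1 at -1.37 and Crebbp at 0.69 lie outside the band, while Kmt2c at -0.67 lies within it.

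Promoters of other chromatin genes were called at the same share as those of all genes. Of 133 further genes of the same pathways, 126 had a tested promoter, and the authors' deposited table calls 3 of these higher and 19 lower, 17.5% in all, with a median of -0.23. Other Polycomb genes had 0 higher and 6 lower of 24, led by Scmh1, a Polycomb complex 1 component, at -1.29 ± 0.19 (SE), and Kdm2b, which brings a complex 1 form to CpG islands, at -0.80 ± 0.16 (SE), in the authors' deposited table. Further H3 methylation and demethylation genes had 0 higher and 4 lower of 24, led by Ash2l and Paxip1, subunits of MLL-type complexes, at -0.95 and -0.63. Other remodelling genes had 1 higher and 4 lower of 27, with Brd7 at 0.73 ± 0.18 (SE), and Chd3 and Bcl7b at -0.75 and -0.77, in the authors' deposited table. Other acetylation genes had 1 higher and 5 lower of 28, with the deacetylase genes Hdac9 at 1.08 and Hdac7 at -0.78 and the acetyltransferase gene Kat2b at -0.64. Further DNA methylation genes had 1 higher and 0 lower of 12, the higher being Dnmt3l, a cofactor without catalytic activity, at 0.74 ± 0.24 (SE) by the authors' deposited table. Of 11 genes for methylation or reading of the heterochromatin mark, 0 were called by the authors' DESeq2 test and 5 had an unadjusted p under 0.05. With the 5 Mb window medians subtracted, 2 were higher and 5 lower of the 126, with Scmh1 (-1.25), Chd3 (-0.52), Hdac7 (-0.66) and Dnmt3l (0.82) still called, while Brd7 turned from 0.73 to -0.13 and did not pass.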

How the data were processed

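Libraries of 3 sensitive and 3 resistant mouse NSCLC organoid samples were grouped by their titles. Per the submitters' processing notes, the build was mm10 and the tools were DESeq2 1.26.0, ChIPseeker 1.22.1 under R 3.6.1, featureCounts, GATK 4.1.3, SAMtools 1.8, deepTools and Bowtie2 2.2.1. Not given in the sources used here are the peak caller, duplicate removal and any Tn5 shift. For each peak the authors deposited p-values, raw and adjusted, a Wald statistic (a score), a log2 fold change with its SE, and the mean normalized count (a signal). Peak coordinates are as the file gives them. The 6 columns of values per library were not used.

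Calls are the authors' adjusted p under 0.05 over all 102173 tested peaks. The 40 genes and all lists were chosen with earlier results of these data known. Named are members with a called promoter, with calls in both directions, the 3 genes with most calls (a tie gave 4) and the member nearest 0 per class; Jarid2, Dnmt3a, Tet1, Tet3, Smarcc1 and the members given as not passing were added after their values were seen. Regional medians (5 Mb windows with at least 20 tested peaks, or the 20 nearest peaks of other genes) and a trend (20 bins of mean count) were subtracted. The 5 Mb windows are fixed blocks along the chromosome, not centred on a gene, and their medians include the gene's own peaks. A normal test with the deposited SE followed, which leaves out the error of the median. On simulated data with whole chromosomes shifted, the correction by the 20 nearest peaks exceeded a limit set beforehand on false calls, so its calls are too lenient. Shifts that vary within a chromosome were not simulated, so how the window correction performs on those is not shown. Sequences are from RefSeq (GRCm38.p6). Computation used statsmodels 0.14.6, SciPy 1.17.1, NumPy 2.4.6 and pandas 2.3.3 in Python 3.11.15, with figures from matplotlib 3.10.9.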

Additional observations from a re-analysis of the deposited data

How the results depend on the processing

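The 11 higher and 24 lower of the 329 member peaks became 5 and 10 with the 5 Mb window median subtracted. They were 6 and 11 with that of the 20 nearest peaks of other genes. With the trend with mean count subtracted they were 17 and 15, and with trend and window both 5 and 7. They were 3 and 13 at an adjusted p under 0.01 and 4 and 12 where a 2-fold change was also asked. Of all tested peaks, 12.4% were called as deposited and 5.85% with the window median, and of all promoters 17.5% and 8.35%. These shares were not computed for the other settings, so whether the other moves are particular to the members is not shown. At a mean count of at least 50 there were 4 higher and 20 lower peaks of only 79 tested. Among peaks up to 5 kb wide there were 8 higher and 10 lower of 294 tested. Left out as genes after the data were seen, Arid1b took the lower peaks to 12 and Crebbp the higher to 7. The 1 higher and 6 lower promoters became 0 and 2 with either regional median, 2 and 1 with the trend, 0 and 1 with both and 0 and 1 at 2-fold. The lower promoters were 3 of 40 with no filter on low counts, 3 of 38 at an adjusted p under 0.01 and 2 of 34 among peaks up to 5 kb wide. The median of the member promoters, -0.15, turned to 0.086 with the trend and to 0.090 with trend and window subtracted, while that of all promoters went from -0.18 to -0.01 and 0.02. Of the other chromatin genes, 5 promoters were lower with the window median, and 10 were higher and 3 lower with the trend. The promoters called higher and lower were 1 and 5 of 38 with the peak nearest to the start, and 1 and 7 of 39 with the strongest peak of any class. With the peak over the RefSeq start (chosen after seeing the data) they were 1 and 4 of 30. The Ezh1 peak over its start was not called.

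The Ring1 promoter turned from -0.36 to 0.19 with the window median, 0.15 with the nearest peaks and 0.39 with trend and window. Crebbp's promoter was at -0.013 with the nearest peaks, and Kmt2c's at 0.16 with trend and window. The cause of these moves was not tested. No paired analysis was possible because the columns of values per library match no sample label, and leaving out each replicate was not run, since those columns were not used.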
